A study of Mus musculus with 12 samples.

Results

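The 10 genes described here are the transcription factor gene Nfe2l2, which encodes Nrf2, 7 genes commonly listed as Nrf2 targets (Nqo1, Gclc, Gclm, Hmox1, Srxn1, Slc7a11 and Cbr3), and the antioxidant enzyme genes Sod1 and Cat. They are listed by name among the 53715 genes of an RNA-seq table of mouse intestinal mucosa, and the rule that lists them uses no measured value, although earlier results of these data were known when the list was made. All 10 were found by symbol and all 10 passed the filter on low counts, which left 16558 genes. RNA was taken from ileal or colonic mucosa of 8-week-old male C57BL/6J mice of 2 genotypes, with 3 libraries for each tissue and genotype and 12 in all. Control libraries are labelled Slc39a8-fl/fl, that is, with both alleles of Slc39a8 floxed and no Cre. The Slc39a8-IEC KO libraries are labelled Slc39a8-fl/fl:Villin-Cre, in which the Villin promoter drives Cre in intestinal epithelial cells (IECs), so that other cells of the mucosa keep the gene. By the study's methods its controls could be floxed, wild-type or Cre-only mice, whereas the genotype labels give 1 control genotype. The titles of the control samples carry WT, so whether these mice were floxed or wild-type is not settled here. Whether an ileal and a colonic library came from the same mouse is not in the labels.

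Nrf2 is a transcription factor that Keap1 holds in the cytoplasm and passes to Cul3-dependent degradation. Oxidants and electrophiles modify Keap1, after which Nrf2 reaches the nucleus, pairs with small Maf proteins and binds antioxidant response elements in its target genes. Bach1, a repressor that heme inactivates, competes for many of the same elements. In the gut these genes are known for detoxifying luminal compounds, for supplying glutathione and for clearing peroxides, and part of the control of Nrf2 acts on the protein, which transcript levels do not show.

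Library depth was 16749138 to 27903083 expected counts, and levels are given as counts per 1000000 counts (CPM) of the TMM-scaled library size. Slc39a8, the manganese and zinc transporter gene targeted in these mice, stood at 8.39, 5.22 and 6.59 CPM in ileal control libraries and at 4.35, 2.62 and 2.80 CPM in ileal KO libraries. In colon it stood at 20.8, 20.5 and 20.1 CPM in control and 7.35, 11.5 and 7.93 CPM in KO libraries, so the genotypes did not overlap in either tissue. Over both tissues its log2 fold difference was -1.13 (standard error, SE, 0.17), with an adjusted p = 0.382 in edgeR. In 2 ileal libraries, control replicate 3 and KO replicate 1, the summed level of 5 smooth muscle markers was 31.5 and 18.4 CPM, against 1670 to 2396 CPM in the other ileal libraries and 2260 to 3555 CPM in colon. A further ileal library, KO replicate 2, held 4 colon markers at a summed 2734 CPM, against 33.2 to 164 CPM in the other ileal libraries and 15000 to 27300 CPM in colon, most of it from Car1. In colon, Hoxb13, a marker of the distal part, was at or near 0 in every library. The 5 epithelial markers summed to 15580 to 20270 CPM in ileum and 7794 to 9024 CPM in colon, all 5 of them lower in colon. Because the libraries are bulk mucosa, fewer cells of a type and less RNA per cell cannot be told apart. Values without 1 or 2 of these 3 ileal libraries are given where that changed a call between tissues, and for some of the genotype differences, none of which was called. No fit left out all 3.

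Most of the 10 genes were expressed at different levels in colon and ileum. A gene is called different when its adjusted p is under 0.1 in edgeR's quasi-likelihood test, the threshold in the study's main text. The study's Reporting Summary instead gives a p under 0.01. In control mice 7 of the 10 were higher in colon (Nfe2l2, Nqo1, Gclc, Gclm, Hmox1, Cbr3 and Sod1), 1 was lower (Srxn1), and Slc7a11 and Cat were not called. Of all genes tested, 35.9% were called in that comparison, 16.2% higher and 19.6% lower. In KO mice 5 were higher (Nfe2l2, Nqo1, Gclm, Hmox1 and Cbr3) and 2 lower (Srxn1 and Slc7a11), against a background of 37.1%, 17.1% higher and 20.0% lower. The 6 genes called in the same direction in both genotypes were Nfe2l2, Nqo1, Gclm, Hmox1, Cbr3 and Srxn1, and 29.3% of all genes were called so. The median log2 fold difference of the 10 genes, colon over ileum, was 0.92 in control and 0.68 in KO mice, and over all genes tested it was 0.02 and 0.01. The colonic and ileal control libraries did not overlap for 9 of the 10 genes, all but Cat, while 40.7% of all genes tested were separated in this way. In KO mice 7 did not overlap, and 50.4% of all genes did not. The same 7 genes were separated in the same direction in both genotypes (all but Gclc, Gclm and Cat), against 32.8% of all genes.

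**Figure D1:**
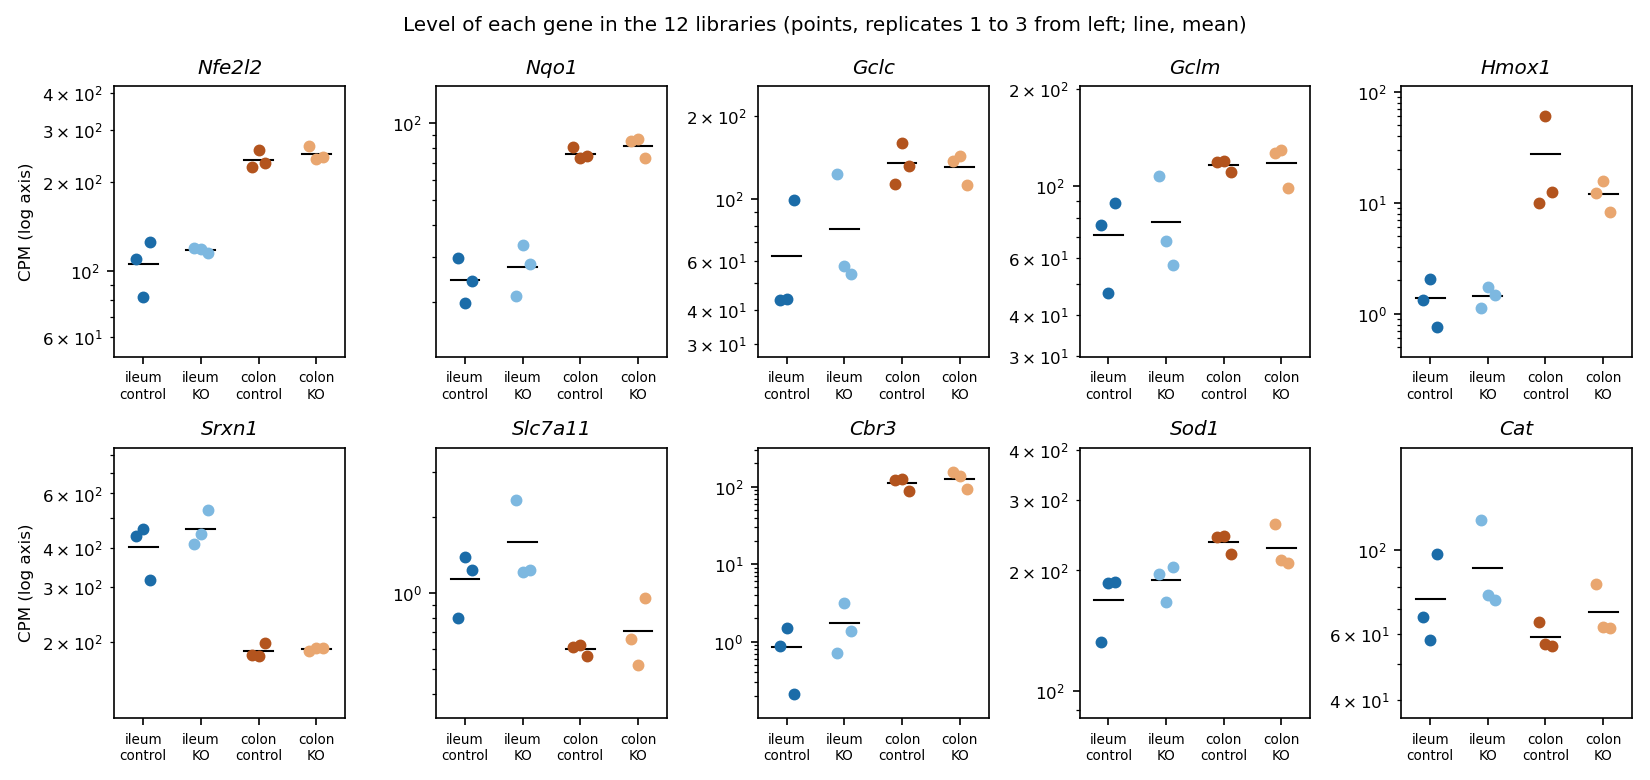
Level of each of the 10 genes in CPM (vertical log axis, a scale of its own in each panel) in the 12 libraries, by tissue and genotype. Points are replicates 1 to 3 from left to right and lines are means. Colonic points lie far above ileal points for Cbr3 and Hmox1 and below them for Srxn1, while KO and control points of a tissue overlap in every panel.

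Nfe2l2 (ENSMUSG00000015839.6, chromosome 2 from 75675513 to 75704641, minus strand, GRCm38) had a colonic mean 2.25 times the ileal mean in control mice and 2.12 times in KO mice. Ileal libraries held 109.8, 81.5 and 125 CPM in control and 119.7, 119 and 115 CPM in KO mice. Colonic libraries held 224, 256 and 233 CPM in control and 266, 239.6 and 243 CPM in KO mice, and the lowest colonic library lay above the highest ileal library. The log2 fold difference, colon over ileum, was 1.17 (SE 0.15, adjusted p = 0.000144 in edgeR) in control and 1.08 (SE 0.15, adjusted p = 0.000255) in KO mice. Among 9 genes that regulate Nrf2 or bind the same elements, 2 were higher and 1 lower in colon of control mice. Of all genes tested, 16.2% were higher and 19.6% lower in that comparison. Keap1 was higher by 0.61 and Sqstm1, whose protein p62 sequesters Keap1, by 0.60 on the log2 scale, with adjusted p = 0.03 and 0.0319. In KO mice neither was called, with log2 fold differences of 0.39 and 0.24, although library size alone called both. Among the 9 regulators in KO mice, TMM called 0 higher in colon, upper-quartile factors 2 and library size alone 3. Bach1 was lower in colon, at 52.3 to 66.8 CPM against 263 to 315 CPM in ileum of control mice, a log2 fold difference of -2.25 (SE 0.15, adjusted p = 1.14e-06), and at -2.27 (adjusted p = 1.1e-06) in KO mice. In colon the transcript of the activator gene Nfe2l2 was thus higher and that of the repressor gene Bach1 lower. Keap1, whose protein holds Nrf2 back, was higher there too in control mice, and the activity of Nrf2 was not tested.

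Cbr3 and Nqo1 encode NADPH-dependent reductases of carbonyls and quinones, and both were higher in colon. Cbr3 (ENSMUSG00000022947.7, chromosome 16 from 93683215 to 93690990, plus strand) was nearly absent from ileum, with 0.865, 1.5 and 0.212 CPM in control and 0.715, 3.13 and 1.37 CPM in KO libraries, from 5 to 80 counts. In colon it reached 123, 127 and 86.9 CPM in control and 154, 136 and 93.1 CPM in KO libraries. The colonic mean was 131 times the ileal mean in control and 73.4 times in KO mice, and the log2 fold differences were 7.08 (SE 0.60, adjusted p = 7.21e-06) and 6.14 (SE 0.55, adjusted p = 1.19e-05). The highest ileal value, 3.13 CPM, was that of KO replicate 2, the library with colon markers, and without it the log2 fold difference in KO mice was 6.90. Its part in the ileal level was not tested otherwise. Cbr1, a neighbour of Cbr3 in the same enzyme family, had the same direction, with 309 to 400.5 CPM in colon and 40.6 to 56.5 CPM in ileum of control mice (log2 fold difference 2.90, adjusted p = 5.11e-07). No 75-base window of Cbr3 transcripts was shared with another gene, Cbr1 included. Cbr2 was also higher in colon, by 3.23 in control and 2.44 in KO mice (adjusted p = 0.0192 and 0.0511).

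Nqo1 (ENSMUSG00000003849.8, chromosome 8 from 107388225 to 107403206, minus strand) held 29.7, 19.8 and 24.1 CPM in ileal control and 21.1, 33.4 and 28.1 CPM in ileal KO libraries. Colonic libraries held 80.7, 73.2 and 74.1 CPM in control and 84.9, 86.4 and 73.3 CPM in KO mice, with means 3.10 and 2.96 times the ileal means and no overlap. The log2 fold differences were 1.63 (SE 0.18, adjusted p = 5.86e-05) and 1.56 (SE 0.18, adjusted p = 7.87e-05). Nqo2, its paralog, which uses another cosubstrate, went the other way, lower in colon by -0.78 in control and -0.59 in KO mice (adjusted p = 0.011 and 0.0392), though upper-quartile factors and library size alone did not call it in KO mice.

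Gclc and Gclm encode the catalytic and the modifier subunit of glutamate-cysteine ligase, the first and rate-limiting step of glutathione synthesis. Gclc (ENSMUSG00000032350.9, chromosome 9 from 77754535 to 77794485, plus strand) held 43.3, 43.9 and 99.5 CPM in ileal control and 124, 57.6 and 54.0 CPM in ileal KO libraries. The 2 high ileal values, 99.5 and 124 CPM, were those of the libraries with few muscle transcripts. Colonic libraries held 113, 159.9 and 132 CPM in control and 137, 144 and 113 CPM in KO mice. Colon was higher by a log2 fold difference of 1.12 (SE 0.37, adjusted p = 0.0415) in control mice and stood at 0.74 (SE 0.36, adjusted p = 0.151) in KO mice. With both of those ileal libraries left out, the differences were 1.61 (SE 0.17, adjusted p = 1.91e-05) and 1.24 (SE 0.16, adjusted p = 0.000133), so Gclc was then called in both genotypes. In KO mice it was also called without ileum KO replicate 1 alone (1.23, adjusted p = 0.0208) or ileum control replicate 3 alone (0.73, adjusted p = 0.0662). In control mice the call was lost without ileum control replicate 1 (adjusted p = 0.123), ileum control replicate 2 (0.132) or colon control replicate 2 (0.126).

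Gclm (ENSMUSG00000028124.15, chromosome 3 from 122245557 to 122270732, plus strand) had the same ileal pattern, with 75.9, 47.0 and 89.0 CPM in control and 107, 67.8 and 57.4 CPM in KO libraries. Again the libraries with few muscle transcripts were the highest of their groups, and in KO mice that library lay within the colonic range. Colonic libraries held 119, 119 and 110.4 CPM in control and 127, 129 and 98.5 CPM in KO mice. The log2 fold differences, colon over ileum, were 0.72 (SE 0.26, adjusted p = 0.0563) and 0.61 (SE 0.25, adjusted p = 0.097). Without those 2 libraries they were 0.90 (adjusted p = 0.00467) and 0.92 (adjusted p = 0.00394). The call in control mice was lost without ileum control replicate 2 or any 1 of the colonic control libraries (adjusted p between 0.122 and 0.166). In KO mice it was lost in 9 of the 12 fits with 1 library left out (adjusted p up to 0.286). Exons of Gclm overlap an antisense transcript, Gm17494, and a processed pseudogene, Gm6061, and 2.84% of its 75-base windows are shared with other genes, so some of its counts are uncertain.

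Slc7a11 encodes the cystine-glutamate exchanger that brings in the cysteine for glutathione, as a pair with the heavy chain from Slc3a2. Slc7a11 (ENSMUSG00000027737.10, chromosome 3 from 49892526 to 50443614, minus strand) was barely detected, with 10 to 39 counts a library. Ileal libraries held 0.799, 1.39 and 1.23 CPM in control and 2.33, 1.21 and 1.23 CPM in KO mice, and colonic libraries 0.614, 0.624 and 0.565 CPM in control and 0.660, 0.518 and 0.955 CPM in KO mice. All ileal values of a genotype lay above its colonic values. The log2 fold difference was -0.92 (SE 0.40, adjusted p = 0.113) in control and -1.14 (SE 0.40, adjusted p = 0.0503) in KO mice. The call in KO mice was lost without ileum KO replicate 1, which holds the 2.33 CPM and few muscle transcripts (-0.77, adjusted p = 0.195), without colon KO replicate 1 (0.132) and without colon KO replicate 2 (0.169). In control mice it was gained without ileum control replicate 1 (adjusted p = 0.0761) or ileum KO replicate 1 (0.0887). Of the 9 other genes of glutathione synthesis and cycling, 2 were higher and 5 lower in colon of control mice, and 2 and 4 in KO mice. Over all genes tested the shares were 16.2% higher and 19.6% lower in control mice, and 17.1% and 20.0% in KO mice. Slc3a2, the partner of Slc7a11, was lower in colon by -2.14 (SE 0.17, adjusted p = 4.67e-06) in control and -2.03 in KO mice. Ggt1, a brush border enzyme that breaks down extracellular glutathione, was lower by -3.91 (adjusted p = 5.65e-07) and -3.44. Gsr, which reduces oxidized glutathione, was lower by -1.70 (adjusted p = 0.000455) and -1.58. Cbs, which makes cystathionine on the route from methionine to cysteine, was higher by 3.78 (adjusted p = 0.00381) and 3.67.

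**Figure D2:**
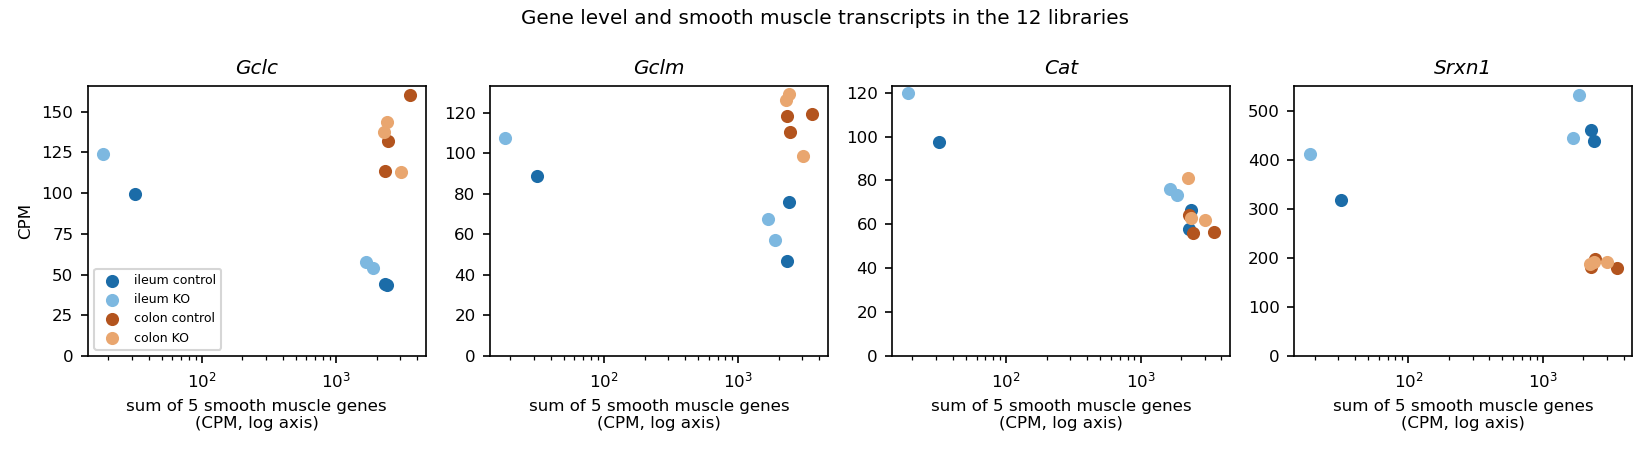
Level of Gclc, Gclm, Cat and Srxn1 in CPM (vertical axis, from 0) against the summed level of 5 smooth muscle markers in CPM (horizontal log axis) in the 12 libraries. The 2 ileal libraries at the left, at 18.4 and 31.5 CPM of muscle markers, hold the highest ileal levels of Gclc, Gclm and Cat, and one of them the lowest ileal level of Srxn1.

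Hmox1 encodes heme oxygenase 1, which breaks heme down to biliverdin, iron and carbon monoxide. Hmox1 (ENSMUSG00000005413.8, chromosome 8 from 75093621 to 75100589, plus strand) was low in ileum, at 1.33, 2.06 and 0.765 CPM in control and 1.13, 1.76 and 1.47 CPM in KO libraries, from 18 to 45 counts. Colonic control libraries held 9.98, 60.4 and 12.5 CPM, and colonic KO libraries 12.2, 15.6 and 8.22 CPM. Control replicate 2 stood apart with 1260 counts, while the other colonic libraries lay between 8.22 and 15.6 CPM. In that library the 6 macrophage markers summed to 58.7 CPM and the 5 red blood cell markers to 35.2 CPM, against 48.5 and 57.3 CPM and 35.1 and 287 CPM in the other 2 colonic control libraries, and their part in the Hmox1 level was not tested. The log2 fold difference, colon over ileum, was 4.33 (SE 0.70, adjusted p = 0.000769) in control mice and 3.03 (SE 0.66, adjusted p = 0.00543) in KO mice. Without colon control replicate 2 it was 3.03 (adjusted p = 0.000515) in control mice. Of 17 genes for NADPH supply, iron storage, conjugation and other listed Nrf2 targets, 7 were higher and 2 lower in colon of control mice, and 7 and 3 in KO mice. Over all genes tested the shares were 16.2% higher and 19.6% lower in control mice, and 17.1% and 20.0% in KO mice. The ferritin subunit gene Fth1 stood at 3105 to 4005 CPM in colon and 761 to 981 CPM in ileum of control mice (log2 fold difference 2.01, adjusted p = 8.2e-06), and Ftl1 was higher by 1.38 (adjusted p = 0.000126). Me1, which supplies NADPH, was higher by 1.88 (adjusted p = 0.000107) and the glutathione transferase gene Gstm1 by 1.67 (adjusted p = 0.000223). In KO mice the 4 largest were Fth1 at 1.95, Gstm1 at 1.92, Me1 at 1.76 and the epoxide hydrolase gene Ephx1 at 1.33. Hmox2, the constitutive heme oxygenase, was lower in colon of control mice by -0.34 (adjusted p = 0.0915), a call that upper-quartile factors and library size alone did not make. In KO mice Hmox2 stood at -0.04 and was not called (adjusted p = 0.863).

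Srxn1 encodes sulfiredoxin, which restores overoxidized peroxiredoxins, and among the 10 it was the gene called lower in colon in both genotypes. Srxn1 (ENSMUSG00000032802.8, chromosome 2 from 152105516 to 152111376, plus strand) held 437, 459.8 and 317 CPM in ileal control and 412, 444 and 532 CPM in ileal KO libraries. Colonic libraries held 182, 180.2 and 198 CPM in control and 187, 192 and 191 CPM in KO mice. Every ileal library lay above every colonic library, and the colonic values varied little. The log2 fold difference, colon over ileum, was -1.12 (SE 0.16, adjusted p = 0.000298) in control and -1.28 (SE 0.16, adjusted p = 0.000112) in KO mice. The 2 libraries with few muscle transcripts held the lowest level of their group, 317 and 412 CPM, and without them the differences were -1.28 and -1.35.

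Sod1 encodes the cytosolic copper and zinc superoxide dismutase, which turns superoxide into hydrogen peroxide, and Cat the peroxisomal catalase that removes the peroxide. Sod1 (ENSMUSG00000022982.9, chromosome 16 from 90220754 to 90226329, plus strand) held 133, 186 and 187 CPM in ileal control and 196, 167 and 204 CPM in ileal KO libraries, and 242, 244 and 219 CPM in colonic control and 261, 213 and 208 CPM in colonic KO libraries. The groups did not overlap, but the difference was small, with a log2 fold difference of 0.48 (SE 0.16, adjusted p = 0.0427) in control mice and 0.27 (SE 0.16, adjusted p = 0.233) in KO mice. The call in control mice was lost without ileum control replicate 1 (0.33, adjusted p = 0.115), colon control replicate 1 (0.107) or colon control replicate 2 (0.116). A pseudogene, Gm8566, shares 1.71% of the 75-base windows of Sod1. Cat (ENSMUSG00000027187.10, chromosome 2 from 103453849 to 103485160, minus strand) held 66.4, 57.9 and 97.6 CPM in ileal control and 119.8, 76.0 and 73.5 CPM in ileal KO libraries, and 64.4, 56.3 and 55.9 CPM in colonic control and 81.2, 62.7 and 62.2 CPM in colonic KO libraries. The tissues overlapped in both genotypes, with log2 fold differences of -0.33 (95% interval -0.83 to 0.17) and -0.39 (-0.88 to 0.11). The 2 high ileal values were again those of the libraries with few muscle transcripts, and without these libraries the differences were -0.10 and -0.11. Of 15 other genes of superoxide and peroxide removal, 2 were higher and 3 lower in colon of control mice and 3 and 3 in KO mice. Over all genes tested the shares were 16.2% higher and 19.6% lower in control mice, and 17.1% and 20.0% in KO mice. The counts of the 15 genes depended on the scaling. With library size alone they were 3 higher and 1 lower in control and 6 and 2 in KO mice. With upper-quartile factors they were 2 and 2 in control and 4 and 2 in KO mice. Prdx6, a peroxiredoxin that also acts on lipid peroxides, was higher in colon by 2.77 (adjusted p = 2.13e-05) and 2.27. Gpx2, the epithelial glutathione peroxidase of the gut, was lower by -2.89 (adjusted p = 0.000151) and -2.23. Ccs, which loads copper into Sod1, was higher by 0.78 (adjusted p = 0.0108) in control mice but was not called in KO mice (0.31, adjusted p = 0.258). Prdx2, a substrate of sulfiredoxin, was lower by -0.48 (adjusted p = 0.00648) in control mice, a call not made with library size alone. In KO mice the next largest after Prdx6 and Gpx2 were Prdx5 at -0.58 (adjusted p = 0.0243) and Prdx3 at 0.55 (adjusted p = 0.0715).

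**Figure D3:**
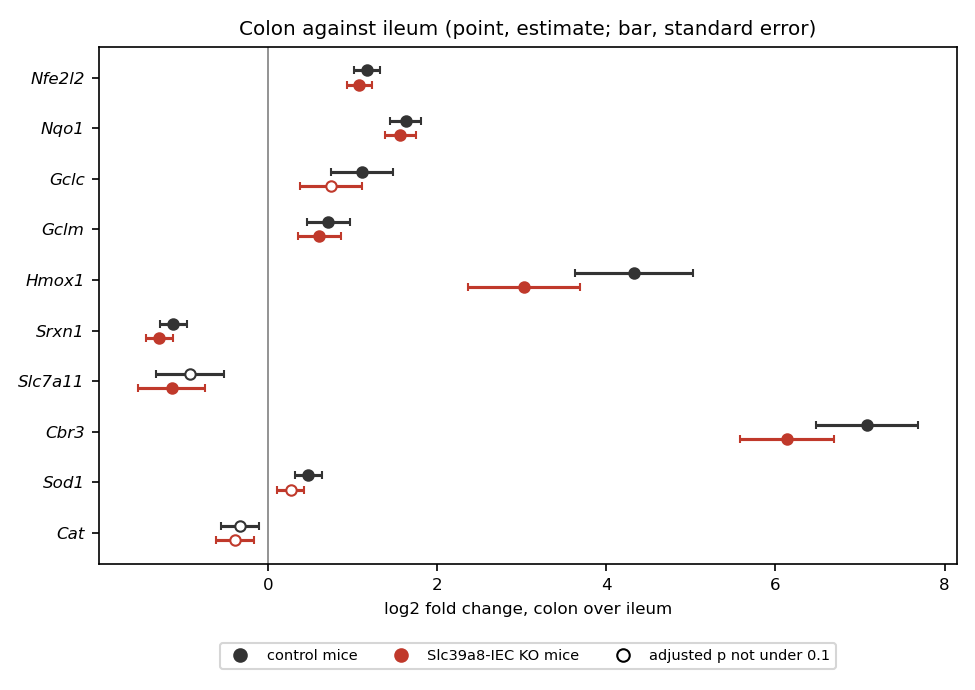
Log2 fold difference, colon over ileum, of the 10 genes in control mice (dark) and KO mice (red). Points are edgeR estimates, bars are standard errors, and filled points have an adjusted p under 0.1. Cbr3 lies farthest right, at 7.08 and 6.14, and Srxn1 lies left of 0, at -1.12 and -1.28.

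**Figure D4:**
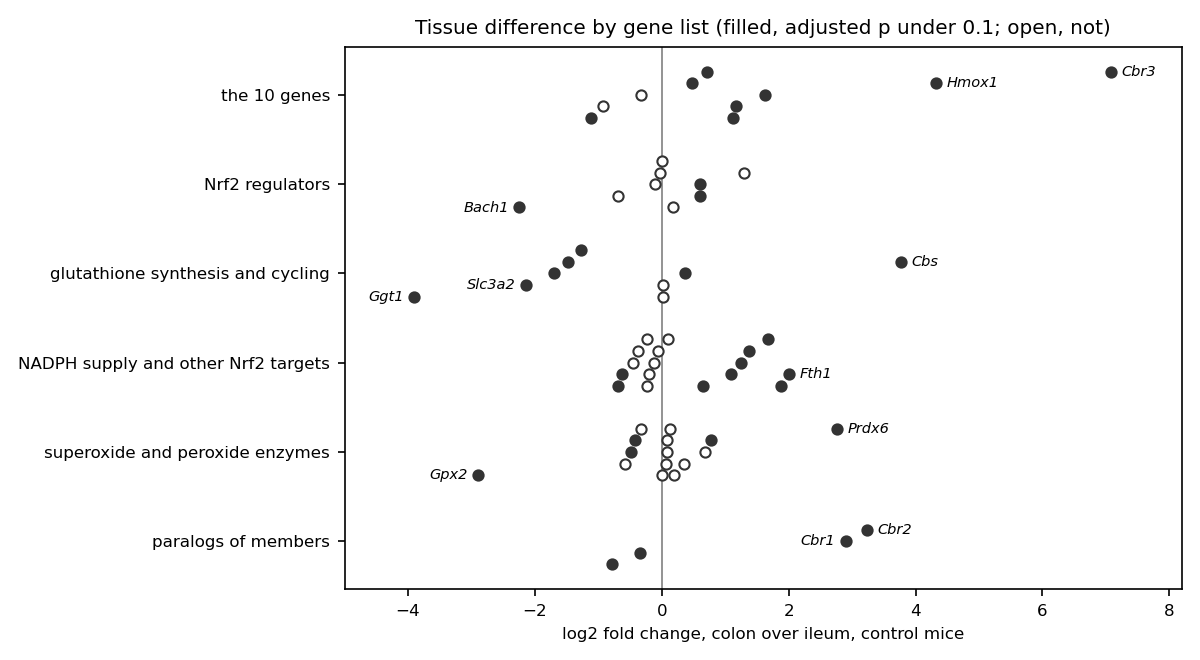
Log2 fold difference, colon over ileum in control mice, of the 10 genes and of 54 other genes of the pathway by list. Filled points have an adjusted p under 0.1 in edgeR. Of the 54 other genes 15 were higher and 13 lower, so each side of 0 holds filled points, and with library size alone 17 were higher and 8 lower. Over all genes tested, with TMM, the shares were 16.2% higher and 19.6% lower.

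Antioxidant response elements share a short core, and the promoters of the genes that moved in opposite directions were compared for it. RefSeq windows of 250 bases before the transcription start were at hand for 8 of the 10 genes. The core was searched as TGACNNNGC on both strands, where N is any base. It was found in 3 of the 8 windows (Nfe2l2, Gclm and Sod1), and in 10.2% of the 32851 windows of all genes. Windows of Nqo1, Srxn1, Slc7a11, Cbr3 and Cat did not hold these letters, which says nothing of elements farther away or spelled otherwise. The Srxn1 window holds TGAGTCAGC, with G where the searched core has C, a spelling that the search did not cover. Its absence from the matches therefore does not show that the Srxn1 window lacks an element, and binding of Nrf2 was not tested. No match overlapped the AP-1 motif TGACTCA, which was checked at matches only. TGAGTCAGC in the Srxn1 window contains that motif on the opposite strand. The 3 windows with a match are shown first, with the match in capitals, and then those of Srxn1 and Cbr3, the genes with the lowest and the highest colon-over-ileum difference among those called in both genotypes. All are written 5′ to 3′ in the direction of the gene, from GRCm38.p6.
Nfe2l2, chr2:75704664-75704913, minus strand, match on the strand of the gene at position -240: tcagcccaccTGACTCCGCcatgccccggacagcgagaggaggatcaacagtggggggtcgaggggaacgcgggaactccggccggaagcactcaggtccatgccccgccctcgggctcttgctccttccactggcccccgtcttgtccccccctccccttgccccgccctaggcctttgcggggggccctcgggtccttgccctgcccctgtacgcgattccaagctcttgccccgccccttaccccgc
Gclm, chr3:122245307-122245556, plus strand, match on the opposite strand at position -134: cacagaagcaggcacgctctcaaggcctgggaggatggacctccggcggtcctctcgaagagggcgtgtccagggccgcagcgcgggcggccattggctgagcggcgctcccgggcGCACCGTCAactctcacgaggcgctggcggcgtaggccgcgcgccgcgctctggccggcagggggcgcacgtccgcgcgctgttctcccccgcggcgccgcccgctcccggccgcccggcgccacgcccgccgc
Sod1, chr16:90220512-90220761, plus strand, match on the opposite strand at position -56: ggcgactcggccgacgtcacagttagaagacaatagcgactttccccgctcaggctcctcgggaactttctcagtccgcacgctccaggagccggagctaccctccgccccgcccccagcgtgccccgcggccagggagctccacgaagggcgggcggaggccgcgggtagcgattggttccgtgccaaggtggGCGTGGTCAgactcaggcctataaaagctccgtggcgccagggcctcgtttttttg
Srxn1, chr2:152105274-152105523, plus strand, no match: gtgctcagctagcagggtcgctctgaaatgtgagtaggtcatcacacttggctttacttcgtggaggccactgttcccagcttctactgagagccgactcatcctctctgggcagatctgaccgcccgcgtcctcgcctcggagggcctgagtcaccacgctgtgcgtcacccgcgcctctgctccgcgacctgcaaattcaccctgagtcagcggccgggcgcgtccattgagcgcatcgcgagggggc
Cbr3, chr16:93682969-93683218, plus strand, no match: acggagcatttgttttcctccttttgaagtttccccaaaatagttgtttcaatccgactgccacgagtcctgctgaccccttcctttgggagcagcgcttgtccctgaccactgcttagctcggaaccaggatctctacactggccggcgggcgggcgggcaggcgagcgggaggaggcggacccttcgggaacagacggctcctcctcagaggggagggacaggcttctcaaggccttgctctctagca

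Loss of Slc39a8 from IECs left these genes without a detected change. None of the 10 was called between Slc39a8-IEC KO and control mice, over both tissues, in ileum or in colon, nor did any genotype effect differ between the tissues at the threshold. edgeR called 0 of the 16558 genes tested, 0% in each of these comparisons. Even the targeted gene Slc39a8 was not called (adjusted p = 0.382 over both tissues in edgeR). The study, with DESeq2 on ileum and colon combined, called Slc39a8 at the same threshold. The absence of a call in edgeR therefore does not show that a gene was unchanged. At an unadjusted p under 0.05 there were 3.87% of all genes over both tissues, 1.52% in ileum, 2.33% in colon and 1.02% for the difference between tissues, with 0 of the 10 in each. KO and control libraries overlapped for all 10 genes in both tissues, while they did not overlap for 3.70% of all genes in ileum and 12.8% in colon, and for 0.411% in both tissues in the same direction. Of the log2 fold differences, KO over control, 9 of 10 were positive over both tissues, with a median of 0.13 against 0.0018 for all genes tested. In ileum 10 were positive with a median of 0.18 (all genes tested, -0.0019), and in colon 7 with a median of 0.05 (all genes, 0.005). The 10 signs are not independent of each other. Within groups some genes varied together, such as Gclc and Cat (correlation 0.84), and some oppositely, such as Gclc and Srxn1 (-0.83). The 10 genes were not tested as a set.

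The width of the intervals shows which changes the 12 libraries could have missed. Over both tissues the 95% interval from edgeR lay within a fold change of 2 in either direction for 8 of the 10 genes. Nfe2l2 stood at 0.12 (-0.10 to 0.33), Nqo1 at 0.14 (-0.13 to 0.40), Srxn1 at 0.11 (-0.12 to 0.34) and Sod1 at 0.06 (-0.18 to 0.30), the narrowest intervals. Cat stood at 0.25 (-0.08 to 0.58), Gclm at 0.08 (-0.29 to 0.45), Gclc at 0.14 (-0.40 to 0.69) and Slc7a11 at 0.36 (-0.22 to 0.95). Cbr3 and Hmox1 had wider intervals, of -0.27 to 1.25 and -1.69 to 0.37. This fit assumes 1 genotype effect shared by ileum and colon. Within a single tissue the interval lay inside a fold change of 2 for 6 of the 10 genes in ileum and 7 in colon. Slc7a11, Cbr3 and Hmox1 went beyond it in both tissues, and Gclc did so in ileum (-0.47 to 1.13). An exact two-sided permutation test of each gene, exchanging genotypes within each tissue over 400 arrangements, gave p between 0.185 for Cat and 0.72 for Gclm, where the smallest p it can give is 0.005. Both this test and the intervals over both tissues treat ileal and colonic libraries as independent, which the labels do not settle. If the same mice gave both tissues, fewer arrangements would be valid and the smallest p would be larger.

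Within a tissue, 2 comparisons came nearest to an unadjusted p of 0.05, and both moved with single libraries. Cbr3 in ileum stood at 1.12 (SE 0.60, unadjusted p = 0.0883), and without ileum KO replicate 2, the library with colon markers, at 0.37. It stood at 0.59 without ileum control replicate 3, at 1.47 without ileum KO replicate 1 and at 1.88 without ileum control replicate 2. Hmox1 in colon stood at -1.21 (SE 0.59, unadjusted p = 0.0662), and without colon control replicate 2, with its 60.4 CPM, at 0.09, while with any other library left out it lay between -1.61 and -0.97. Gclc in ileum stood at 0.33 (SE 0.36), at 0.85 without ileum control replicate 3 and at -0.16 without ileum KO replicate 1, the libraries with few muscle transcripts. Slc7a11 in ileum stood at 0.46, and at 0.14 without both of those libraries. The standard errors within a tissue use 1 spread shared by the 4 groups. With the 6 ileal libraries alone, Cbr3 stood at 1.02 (SE 0.80) and Gclc at 0.32 (SE 0.46). With the 6 colonic libraries alone, Hmox1 stood at -1.22 (SE 0.59), and the SE of Gclc was 0.15, against 0.36 in the shared fit. Over both tissues Cbr3 stood at 0.49, and at 0.23 without ileum KO replicate 2. Without ileum KO replicate 1, Slc7a11 went from 0.36 to 0.17 and Cat from 0.25 to 0.13. Among the 54 other genes of the pathway none was called either, and 5 had an unadjusted p under 0.05 over both tissues, where 3.87% of all genes did. Named after their values were seen, these were Gstm1 at 0.43, Osgin1 at 0.38, Txnrd2 at 0.33, Nfe2l1 at 0.22 and Gss at 0.18 on the log2 scale.

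**Figure D5:**
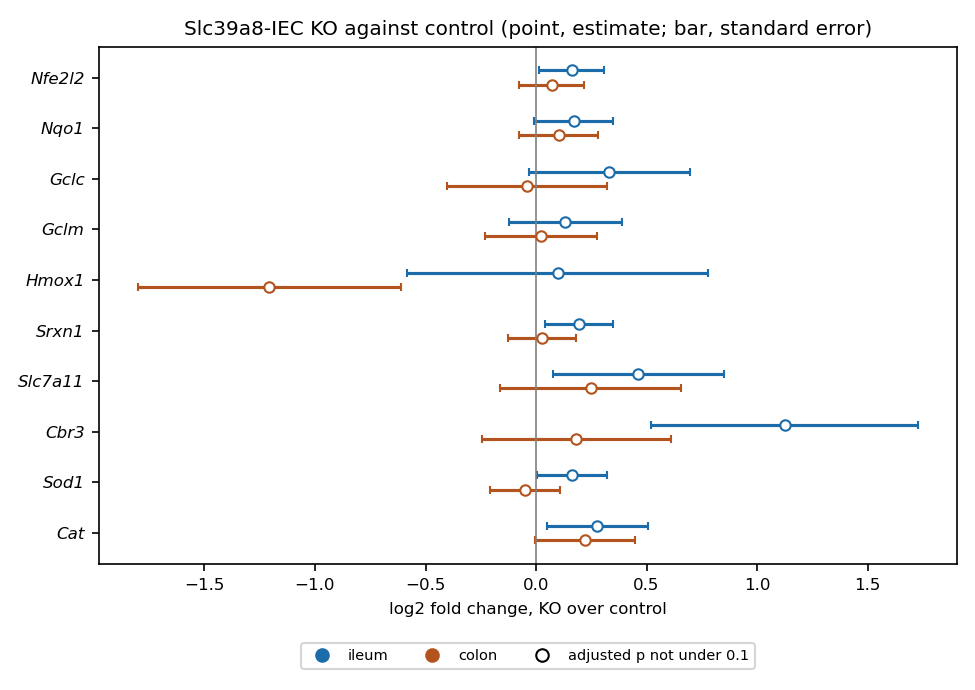
Log2 fold difference, Slc39a8-IEC KO over control, of the 10 genes in ileum (blue) and colon (orange). Points are edgeR estimates and bars are standard errors, and all points are open since none had an adjusted p under 0.1. Most estimates lie within 0.5 of 0, apart from Cbr3 in ileum at 1.12 and Hmox1 in colon at -1.21.

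Levels can be compared between genes only per length, here as CPM per kilobase of 1 reference transcript a gene. Sod1 was the most abundant of the 10 in each group, at 263 ± 48.6 (SD, n = 3) CPM per kilobase in ileum and 367 ± 21.6 in colon of control mice. Next in ileum came Srxn1, at 144 ± 27.3 CPM per kilobase in control mice, and in colon Cbr3, at 96.2 ± 19.1, which overlapped Nfe2l2 at 96.0 ± 6.61. Cbr3 was among the 3 lowest in ileum, at 0.734 ± 0.55 CPM per kilobase, where it overlapped Hmox1 at 0.882 ± 0.41. Slc7a11 was the lowest in every group, at 0.124 ± 0.033 in ileum and 0.0652 ± 0.0034 in colon of control mice. In ileal control libraries the ranges of neighbours from Nfe2l2 through Cat, Gclc and Nqo1 to Gclm overlapped, so their order there is not settled. The order in KO mice was the same in colon, and in ileum it differed only in Cbr3 and Hmox1 changing places, which overlapped.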

How the data were processed

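RNA-seq of ileal and colonic mucosa was analysed in 12 libraries, grouped by tissue and genotype from the sample labels, 3 per group, each from 1 mouse. The authors deposited 1 table of expected counts per gene, which are not normalized and need not be whole. Of its values 93.7% were whole, and they were rounded. The submitters' processing notes name mm10 and STAR, and the study's Reporting Summary names UMI-tools and FeatureCounts for its counts file. FeatureCounts counts whole reads by default, so whether it made the deposited expected counts is not clear from these sources. The 92 spike-in rows, all at 0, were left out. Oligo-dT priming was used for cDNA. Because whether the counting used strand is not stated, antisense overlap cannot be told apart.

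Genes were filtered with filterByExpr, scaled by TMM and tested in edgeR 4.0.16 (limma 3.58.1, R 4.3.3) with the quasi-likelihood test. The comparison over both tissues had tissue as an additive term, and the others were contrasts of the 4 groups in 1 model of all libraries. P-values were adjusted by Benjamini-Hochberg over all 16558 genes tested, with a threshold of 0.1. Intervals at 95% come from the standard error and the degrees of freedom of the test. The permutation test used log2(CPM + 0.5). Depth limits Slc7a11 in all libraries, and Cbr3 and Hmox1 in ileum. Coordinates and transcripts are from GENCODE M21, in which 51464 of 53715 gene identifiers had the same version. Promoter windows are from RefSeq, and those of Gclc and Hmox1 were not used here. The scripts were tested on simulated data. Replicates of a group differed beyond sampling noise.

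The 10 genes, the pathway and marker lists and the tests were chosen with earlier results of these data known. The text names all 10 genes in each comparison, and of each pathway list up to 4 called genes with the largest absolute log2 fold change, besides paralogs of the 10. The other lists were 9 regulators, 9 glutathione genes, 17 genes of NADPH supply and other targets, 15 superoxide and peroxide genes and 4 paralogs. Marker lists of ileum, plasma cells, T and B cells and stroma were also summed, at 8484 to 12690 CPM in ileal and 576 to 926 CPM in colonic libraries for the 3 ileum markers, 374 to 2667 and 235 to 748 CPM for plasma cells, 25.6 to 34.0 and 6.01 to 11.7 CPM for T and B cells, and 25.2 to 223 and 126 to 274 CPM for stroma. The alternatives were other scaling factors, filters, tools (DESeq2 1.42.0 and limma-voom) and thresholds, a replicate block, the 6 libraries of a comparison alone, 2 ileal libraries left out, and each library left out in turn.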

Additional observations from a re-analysis of the deposited data

How the results depend on the processing

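Over all alternatives but the omission of single libraries, 7 or 8 of the 10 genes were called between tissues in control mice and 5 to 9 in KO mice, and 0 between genotypes in any genotype comparison. With 1 library left out in turn the counts ran from 5 to 9 in control mice, the 5 without colon control replicate 2, and from 5 to 8 in KO mice, and stayed at 0 between genotypes. No tissue difference of the 10 genes turned direction under any alternative. Beside the calls that the report gives with single libraries left out or without the 2 ileal libraries, those that changed were Gclc in KO mice, gained with upper-quartile factors (adjusted p = 0.0821), limma-voom (0.0919) and a replicate block within genotype (0.0878), Sod1 in KO mice, gained with upper-quartile factors (0.082) and library size alone (0.0519), Sod1 in control mice, lost with the 6 libraries alone (0.109), and Slc7a11 in KO mice, lost with library size alone (0.146), with no filter (0.128) and without the 2 ileal libraries (0.176). A threshold of 0.05 would lose Gclm in both genotypes and Slc7a11. The causes were not tested. Scaling moved the median log2 fold difference of all genes, colon over ileum, to 0.24 and 0.29 with library size alone and to 0.12 and 0.14 with upper-quartile factors. In control mice all genes split into 2689 higher and 3251 lower with TMM, 4156 and 2102 with library size alone and 3373 and 2741 with upper-quartile factors, and in KO mice into 2837 and 3312, 4637 and 1908, and 3678 and 2634. Over both tissues DESeq2 called 4 genes between genotypes, limma-voom 1 and the fit without the 2 ileal libraries 5, none of them among the 10.

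Some genotype differences turned sign, none of them called under any alternative. Most lay near 0, but Hmox1 without colon control replicate 2 went from -1.21 to 0.0939 in colon, from -0.66 to 0.0933 over both tissues and from -1.30 to 0.0028 in the tissue difference of the genotype effect, and Gclc in ileum without ileum KO replicate 1 went from 0.33 to -0.16. Library size alone gave 0.0471 for Gclc and 0.0529 for Sod1 in colon and 0.0078 for the tissue difference of the genotype effect of Cat. Without the 2 ileal libraries with few muscle transcripts Hmox1 in ileum stood at -0.0891, and the tissue difference of the genotype effect at 0.0246 for Gclm and 0.13 for Slc7a11. With 1 library left out, the genotype difference over both tissues ran from -0.0935 to 0.35 for Gclc, -0.0636 to 0.17 for Gclm, -0.86 to 0.0933 for Hmox1 and -0.0199 to 0.10 for Sod1. In ileum it ran from -0.16 to 0.85 for Gclc, -0.17 to 0.34 for Gclm and -0.21 to 0.52 for Hmox1. In colon it ran from -0.15 to 0.10 for Gclc, -0.046 to 0.15 for Gclm, -1.61 to 0.0939 for Hmox1, -0.0114 to 0.43 for Slc7a11 and -0.18 to 0.0261 for Sod1. The tissue difference of the genotype effect ran from -0.22 to 0.0632 for Nfe2l2, -0.23 to 0.10 for Nqo1, -0.88 to 0.12 for Gclc, -0.30 to 0.20 for Gclm, -1.72 to 0.0028 for Hmox1, -0.47 to 0.16 for Slc7a11 and -0.30 to 0.21 for Cat.

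The labels do not say whether same-numbered libraries share a mouse. Correlations of their deviations ran from -0.0798 to 0.165 between ileum and colon of control mice and from 0.0512 to 0.251 in KO mice, and from -0.694 to 0.404 between genotypes, whose mice differ. Since not all passed 0.1, the numbers were not used as a pairing. With a replicate block 8 of the 10 genes were called between tissues in control mice and 7 in KO mice, and 0 between genotypes. With the block within genotype 8 and 8 were called between tissues, and 0 for the tissue difference of the genotype effect. KO against control cannot be fitted with that block. Beside Gclc in KO mice, neither block changed a call that it could test. Depth limits Slc7a11, with 10 to 39 counts, and Cbr3 and Hmox1 in ileum.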

Other observations

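For each of the 10 genes, the gene with the most similar pattern over the 12 libraries, by Pearson r of log2 CPM, was as follows. Nfe2l2 was closest to Kcnh3 (r = 0.989), Nqo1 to Ugt1a6a (0.992), Cbr3 to Casp6 (0.994), Srxn1 to Gp1bb (0.991) and Gclc to Per3 (0.985). Gclm was closest to Retreg1 (0.972), Hmox1 to Satb1 (0.967), Sod1 to Cox4i1 (0.960), Slc7a11 to Smarcd1 (0.958) and Cat to Ecd (0.944). Each was the best of 16558 genes, and the 12 points fall into ileal and colonic libraries, so these values are a description with no test. None of the 10 partners is on the lists of pathway genes.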
